A study of Mus musculus with 12 samples.

Results

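Control MemB were compared with control B2 from the mouse peritoneal cavity (PerC) across all genes, without the knock-in libraries of the same series. The members are the 6 libraries from control mice, out of 12 in all, chosen by labelled genotype and cell type. The IgD+IgM+ gate gave the B2 and the IgD-IgM- gate the MemB, with 3 libraries of each, labelled as biological replicates. The series compares B cells of mice with and without a knock-in (KI) allele of the receptor GPR34, and the control mice are its baseline. In the KI mice, Cd21-Cre switches on a truncated GPR34 and GFP from the Rosa26 locus in mature B cells. The labels give the control mice no treatment and no age, and do not say which of those alleles a control mouse carried. Each library is bulk RNA from cells sorted on surface IgD and IgM, amplified before sequencing, so it averages over every cell type that passed the gate. The labels do not say whether same-numbered B2 and MemB libraries came from the same mouse.

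B2 cells are the conventional, recirculating B cells, which in the naive state carry both IgM and IgD on the surface. After antigen and T cell help, some of their descendants replace the IgM constant region by class switch recombination and persist as memory B cells that carry IgG, IgA or IgE. The PerC also holds B1 cells, a separate self-renewing lineage with high surface IgM and little IgD, which the study's gate placed in neither sort.

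The authors deposited RSEM expected counts per gene, in which reads that fit several genes are shared between them, and 31.9% of the non-zero values were therefore not whole. The 6 libraries held between 29895068 and 37629279 counts, and between 17253 and 17899 genes had at least 1 count. The share of ribosomal RNA genes was 29.3% to 38.3%, with overlapping ranges in B2 and MemB, which leaves less depth for other genes. Libraries of the same cell type correlated across genes at 0.759 to 0.801 (6 pairs), and libraries of different cell types at 0.751 to 0.779 (9 pairs), as Pearson's r of log2 CPM, a description over genes that are not independent. Replicate 3 of both cell types stood apart from replicates 1 and 2 in genes of the sex chromosomes, with 3205 and 2706 normalized CPM of Xist against 29.2 to 52.0 in the others, so each cell type has the same mixture of sexes. CPM here are counts scaled to library size after TMM normalization, which is robust to a few abundant genes.

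Of the 56128 genes with a symbol, 12920 passed the filter on low counts and were tested in edgeR (quasi-likelihood F test, p-values adjusted by Benjamini and Hochberg's method). A call needed a log2 fold change beyond 1 in either direction as well as an adjusted p below 0.05. MemB differed from B2 in 28 genes, which is 0.217% of those tested, with 17 higher and 11 lower in MemB. The median log2 fold change over all genes tested was 0.04. Among the rises the smallest adjusted p-values belonged to 4 constant genes of switched immunoglobulin isotypes (Ighg2b, Ighg2c, Igha and Ighg3), followed by Anxa2, Zbtb20 and Bhlhe41, and the highest log2 fold changes to P2ry13, Ighg2c, Cma1 and Osbpl3. The falls of greatest size were those of Ighd, Lrrk2, Slfn8, Icosl and Fcer2a. In 27 of the 28 genes the 3 MemB libraries did not overlap the 3 B2 libraries, and the exception was Cma1. Such separation was seen in 1605 of the tested genes (12.4%), 830 above and 775 below, and the 28 were called on the same values, so their separation adds nothing to the call. At an unadjusted p below 0.05 the same edgeR test gave 980 genes (7.59%), 571 higher and 409 lower in MemB. By the rule for a call stated above, with adjustment and fold limit, DESeq2 called 263 genes (2.04%), all 28 among them. The number of calls also rested on single libraries, with 13, 19 and 10 genes called without B2 replicate 1, 2 or 3, and 14 without MemB replicate 1, 2 or 3.

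**Figure D1:**
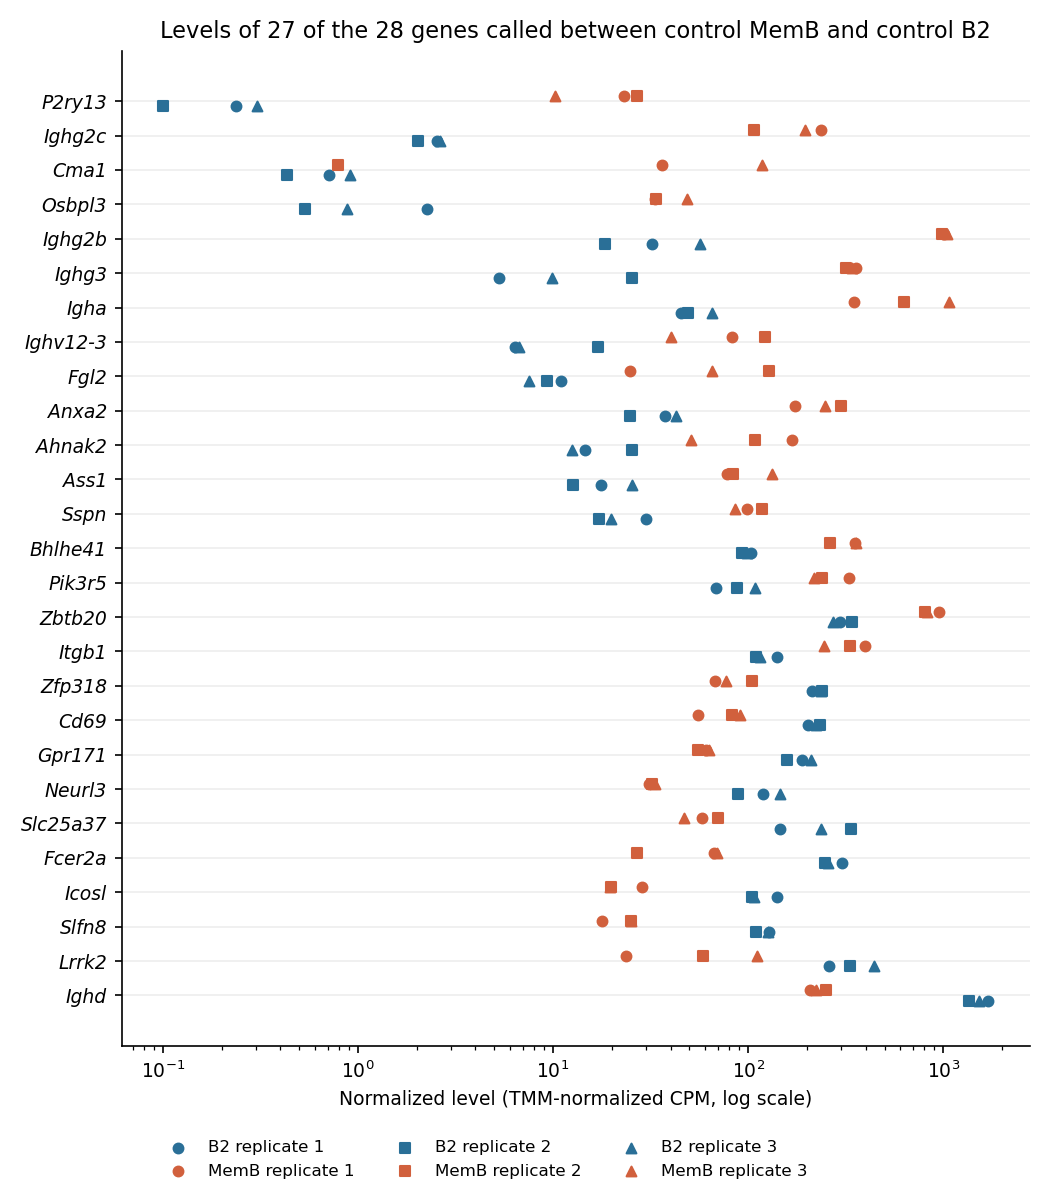
Normalized level (TMM-normalized CPM, log scale) of 27 of the 28 called genes in the 6 control libraries, blue for B2 and orange for MemB, with a symbol for each replicate. Genes are ordered by log2 fold change from P2ry13 (6.53) to Ighd (-2.75), and only the MemB libraries of Cma1 reach into the range of the B2 libraries.

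**Figure D2:**
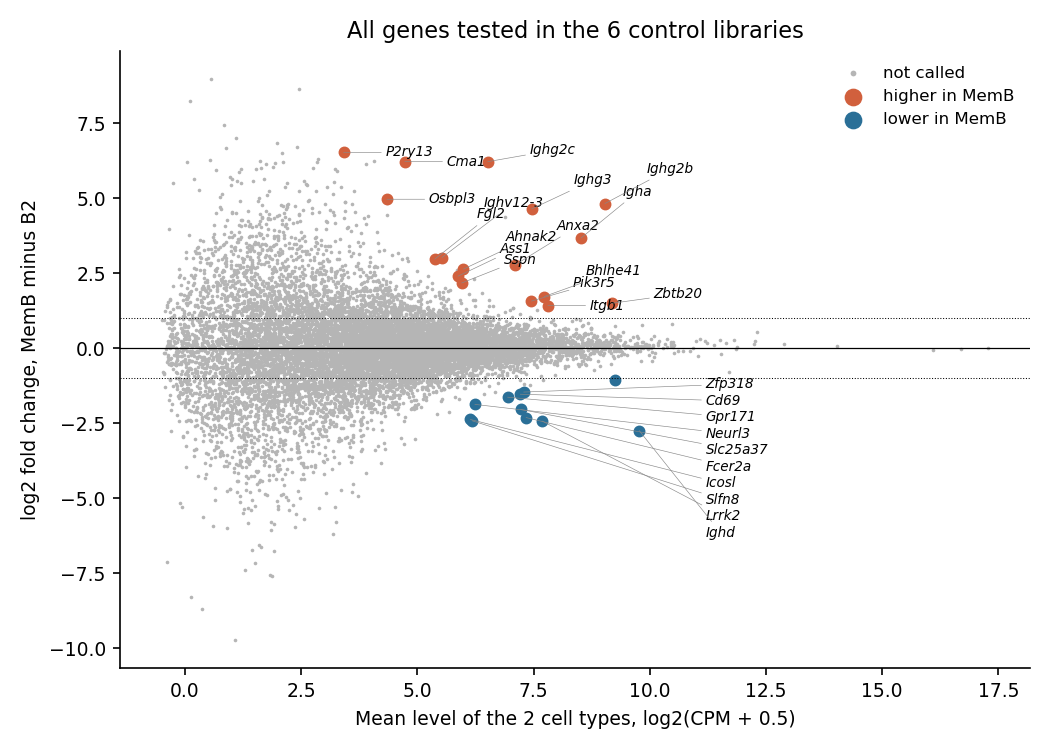
The log2 fold change of MemB over B2 for each of the 12920 genes tested, against the mean level of both cell types on the log2(CPM + 0.5) scale, with the 17 genes higher in MemB in orange and the 11 lower in blue. Dotted lines mark log2 fold changes of 1 and -1, and the scatter of genes that were not called is widest at low levels.

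The sort gate was read first from the genes it uses. Ighd, the constant gene of IgD, stood at 1703, 1347 and 1516 CPM in B2 replicates 1 to 3 and at 208, 250.3 and 222 in MemB, so that every MemB library was far below every B2 library. It fell by 2.75 on the log2 scale (standard error 0.19, adjusted p = 3.97e-08, edgeR), or 6.71-fold lower. Ighm, the constant gene of IgM, stood at 4363, 4054 and 4211 CPM in B2 and at 2673, 2610.5 and 1991 in MemB, again without overlap. Its log2 fold change of -0.80 passed edgeR's adjustment (adjusted p = 0.0168) but not the limit on the fold, and Itga4 (0.82, adjusted p = 0.0262) was the only other gene of that kind. Ighm transcripts thus remained abundant in cells sorted as negative for surface IgM. Cells in the gate that carry no IgM but have Ighm RNA, and IgM-bearing cells in the sort, cannot be told apart in bulk RNA, and neither can fewer cells of a type and less RNA per cell. In the list of gate and B cell identity genes, 10 of 11 were tested, and the groups did not overlap for 4, each lower in MemB (Ighd, Ighm, Pax5 and Ebf1), beside the 12.4% of all genes tested. Of these 4, Ighd was called. Ms4a1, which encodes CD20, had 761, 827 and 702 CPM in B2 and 755, 803 and 801 CPM in MemB, and Cd79a, a signalling chain of the B cell receptor, had 446, 401 and 652 CPM in B2 and 481, 527 and 528 CPM in MemB. The groups overlapped for both, which had log2 fold changes of 0.04 and 0.03 (adjusted p = 0.987 and 0.992, edgeR). Pax5, the transcription factor that holds B cell identity, had 545, 706 and 521 CPM in B2 and 308, 418 and 442 in MemB, a log2 fold change of -0.60 that was not called (adjusted p = 0.413, same edgeR test). Ebf1, a factor that sets up the B cell programme, had 299.7, 326 and 255 CPM in B2 and 247, 209 and 187 CPM in MemB and was not called (log2 fold change -0.45, adjusted p = 0.671, edgeR). Sdc1, the plasma cell marker CD138, had 2, 0 and 69 counts in B2 and 1, 0 and 3 in MemB and was too low to be tested.

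Transcripts of other cells were present unevenly. Of 17 T and NK cell markers, 14 were tested, 13 had a positive log2 fold change and 0 were called by edgeR (6 at an unadjusted p below 0.05, all higher, and 1 called by DESeq2), and their summed level was 51.3 to 99.6 CPM in B2 and 169 to 340 CPM in MemB, without overlap. The median log2 fold change of that list was 1.64 over the 14 members tested, beside 0.04 over all genes, and in KI mice it was -1.73 over the 10 members tested there. The libraries did not share a pattern. Cd3e (68.1 CPM), Trbc1 (71.8 CPM) and Cd8b1 (23.1 CPM) were highest in MemB replicate 2, and Cd4 (43.5 CPM) and Nkg7 (45.3 CPM) in MemB replicate 1. Cd3d (14.5 CPM) and Cd5 (472 counts) were highest in MemB replicate 3. Of 20 markers of macrophages, monocytes and dendritic cells, 10 were tested and 0 were called by edgeR (3 at an unadjusted p below 0.05, all higher, and 1 called by DESeq2). Their summed level was 44.8 to 117 CPM in B2 and 80.2 to 207 CPM in MemB, and Gata6, C1qa, C1qc, Mertk and Alox15, genes of resident peritoneal macrophages, had 0 counts in all 6 libraries. Other markers of such cells were present, with 133, 273 and 53 counts of Adgre1 in B2 and 15, 44 and 61 in MemB, and with 0 counts of Timd4 in B2 and 32, 0 and 27 in MemB. Apoe had 411 to 643 counts in B2 and 1048 to 1785 in MemB, and Cd68 had 61 to 667 in B2 and 30 to 495 in MemB. Ccl22, a dendritic cell chemokine, made up 89.0 CPM of that sum in MemB replicate 3. Granulocyte markers summed to at most 0.912 CPM in B2 and to 0 in MemB, mesothelial and stromal markers to at most 0.0911 CPM and 0, and erythroid and platelet markers to at most 2.7 and 0.876 CPM. Mast cell markers summed to 45.0, 1.52 and 250.3 CPM in MemB replicates 1 to 3 and to at most 2.87 CPM in B2. The part of such cells in the differences below was not tested, beyond the values set beside them.

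Cma1, which encodes the mast cell protease chymase, is the called gene that these values touch most. It had 0.709, 0.434 and 0.911 CPM in B2 and 36.4, 0.789 and 117 CPM in MemB, so it was high in MemB replicates 1 and 3 and at the B2 level in replicate 2. Its log2 fold change of 6.22 was called (standard error 1.19, adjusted p = 0.0246, edgeR), although the groups overlap. Cpa3, mast cell carboxypeptidase, followed the same libraries with 7.74, 0.526 and 76.9 CPM in MemB and was not called (log2 fold change 6.15, adjusted p = 0.111, edgeR). Without MemB replicate 3 the log2 fold change of Cma1 was 4.76 and without MemB replicate 2 it was 6.80, so its size rests on single libraries. The call of Cma1 was lost without any of the libraries except MemB replicate 2, at adjusted p values of up to 0.423 in the same edgeR test.

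The constant genes of the switched isotypes lie in 1 cluster on the minus strand of chromosome 12 of GRCm39 (GENCODE M39), from Igha at 113218450 to 113223856, through Ighg2c at 113248945 to 113252552, Ighg2b at 113266585 to 113271553 and Ighg3 at 113319844 to 113324852, to Ighd at 113370224 to 113379944. Of the 6 switched constant genes, 5 were tested, and 4 of those 5 rose in MemB, against 0.217% of all genes called, with a list median of 4.65. MemB were sorted for lack of surface IgM and IgD, so these calls and that of Ighd are not independent of the gate. Ighg2b had 32.0, 18.4 and 56.7 CPM in B2 and 1010.1, 981 and 1046 CPM in MemB, where its libraries were nearly equal. It rose by 4.82 on the log2 scale (standard error 0.33, adjusted p = 3.97e-08, edgeR), or 28.3-fold. Ighg2c had 2.53, 2.04 and 2.64 CPM in B2 and 237, 107 and 196 CPM in MemB, where replicate 2 was lowest. Ighg2c rose by 6.22 on the log2 scale (standard error 0.45, adjusted p = 9.18e-08, edgeR). Ighg3 had 5.30, 25.3 and 9.84 CPM in B2, highest in replicate 2, and 356, 319 and 339 CPM in MemB. Ighg3 rose by 4.65 on the log2 scale (standard error 0.45, adjusted p = 7.52e-06, edgeR). 

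Igha, the constant gene of the mucosal isotype IgA, varied more among MemB, with 349.6, 629.5 and 1065 CPM against 45.3, 49.2 and 65.4 CPM in B2. MemB replicate 3 was the highest and replicate 1 the lowest, and all of them were above B2. Igha rose by 3.68 on the log2 scale (standard error 0.33, adjusted p = 2.67e-06, edgeR). Ighg1 had 197, 105 and 373 CPM in MemB and 26.0, 2.54 and 4.01 CPM in B2, where replicate 1 was far above the others. It was not called (log2 fold change 4.38, adjusted p = 0.271, edgeR), although the groups did not overlap. Ighg1 was called by DESeq2 (adjusted p = 0.00804), by edgeR in a model of all 12 libraries (adjusted p = 0.0415), by edgeR's non-robust fit (adjusted p = 0.0315) and without B2 replicate 1 (log2 fold change 6.10, adjusted p = 3.90e-05, edgeR). Ighe, the constant gene of IgE, had 4, 1 and 0 counts in B2 and 0, 0 and 55 in MemB and was not tested. Zfp318, a zinc finger protein required for the alternative processing that makes Ighd transcripts, fell together with Ighd, from 211, 239 and 235 CPM in B2 to 67.9, 104 and 76.9 CPM in MemB. Its libraries did not overlap, and it fell by 1.46 on the log2 scale (standard error 0.28, adjusted p = 0.0262, edgeR). RSEM shares reads between the similar Ighg genes, so the split among them is less certain than their sum.

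Per kilobase of annotated exon, which allows levels of different constant genes to be compared, the switched genes together made 1.32%, 1.31% and 1.72% of all heavy chain constant counts in B2 replicates 1 to 3 and 37.2%, 35.9% and 50.9% in MemB. The means were 1.45% ± 0.235 (SD, n = 3) and 41.4% ± 8.32 (SD, n = 3), and no MemB library came near a B2 library. Ighm made 72.6% ± 1.55 (SD, n = 3) of the B2 total and 53.7% ± 8.22 (SD, n = 3) of the MemB total. It therefore remained the largest single constant gene in MemB, with 58.3%, 58.5% and 44.2% in the 3 libraries. Ighd made 26.0% ± 1.54 (SD, n = 3) in B2 and 4.99% ± 0.541 (SD, n = 3) in MemB. Among the switched genes in MemB, Ighg2b held the largest mean share at 15.8% ± 0.491 (SD, n = 3), followed by Igha at 10.7% ± 5.69 (SD, n = 3), Ighg2c at 5.64% ± 2.03 (SD, n = 3), Ighg3 at 5.61% ± 0.235 (SD, n = 3) and Ighg1 at 3.62% ± 2.19 (SD, n = 3). Ighg2b was above Ighg2c, Ighg3 and Ighg1 in every MemB library, and Igha was above Ighg2b in MemB replicate 3 alone. Ighg2c, Ighg3 and Ighg1 lay within their spread of each other. Their order depends on the annotated exon length, which was 1326 bases for Ighg2c and 2678, 2512 and 2592 for Ighg2b, Ighg3 and Ighg1. The annotation used for counting is not known here. By mean CPM in MemB, Ighg2c (180) was below Ighg3 (338) and Ighg1 (225). Igha alone made 14.5%, 27.8% and 32.8% of the switched counts of MemB replicates 1 to 3. These shares were computed after the calls were known and carry no test.

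**Figure D3:**
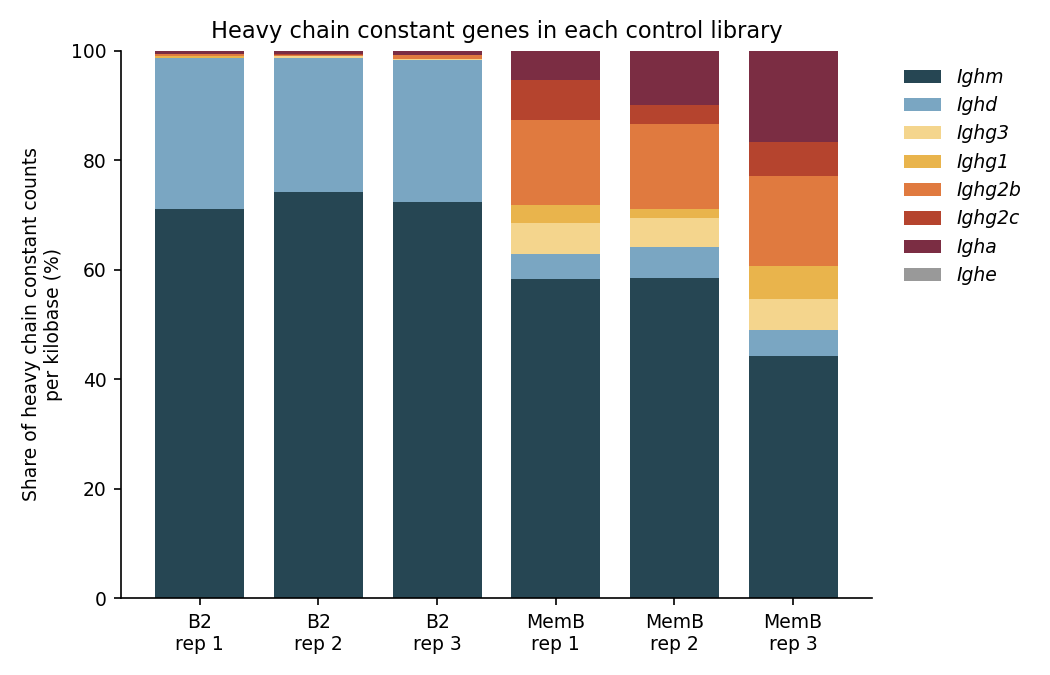
Share of each heavy chain constant gene in the counts per kilobase of all 8 such genes, in percent, as 1 stacked bar for each of the 6 control libraries. Ighm and Ighd fill nearly all of the B2 bars, and the switched genes fill 37.2%, 35.9% and 50.9% of the MemB bars.

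Outside the constant genes, 1 variable segment rose. Ighv12-3, on chromosome 12 from 114330141 to 114330574, is a heavy chain variable segment used by peritoneal B1 cells that bind phosphatidylcholine. It had 6.38, 16.9 and 6.68 CPM in B2 and 82.3, 122 and 40.1 CPM in MemB, lowest in replicate 3 and without overlap. Ighv12-3 rose by 3.02 on the log2 scale (standard error 0.58, adjusted p = 0.0262, edgeR). Ighv11-2, another segment known from such cells, had 21.9, 13.2 and 9.26 CPM in B2 and 83.4, 49.95 and 24.8 CPM in MemB and was not called (log2 fold change 1.84, adjusted p = 0.374, same test).

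The transcription factor genes Zbtb20 and Bhlhe41 rose. Zbtb20, on chromosome 16 from 42696093 to 43462965, encodes a BTB zinc finger factor known from plasma cells and memory B cells. It had 297, 342 and 271 CPM in B2 and 948, 802 and 822 CPM in MemB, with the MemB libraries all far above the highest B2 library. It rose by 1.50 on the log2 scale (standard error 0.19, adjusted p = 4.20e-04, edgeR), or 2.82-fold. Bhlhe41, on chromosome 6 from 145803969 to 145811430, encodes a basic helix-loop-helix repressor on which B1 cells depend. It had 103, 93.0 and 98.6 CPM in B2 and 353, 264 and 358 CPM in MemB, with little spread within either. Bhlhe41 rose by 1.72 on the log2 scale (standard error 0.25, adjusted p = 0.00192, edgeR). Zbtb20 overlaps 11 other annotated genes, 5 of them on its own strand, and the counts cannot separate their shared reads.

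Anxa2, Itgb1, Ahnak2 and Sspn, placed together here only for description, also rose. Anxa2, on chromosome 9 from 69360542 to 69399077, encodes annexin A2, which binds membrane phospholipids in the presence of calcium. It had 37.3, 24.6 and 42.6 CPM in B2 and 173, 299 and 247 CPM in MemB, and it rose by 2.78 on the log2 scale (standard error 0.34, adjusted p = 1.97e-04, edgeR). Itgb1, the integrin beta chain that pairs with Itga4 among others, had 140.2, 109.6 and 115 CPM in B2 and 399, 333 and 246 CPM in MemB, without overlap. Itgb1 rose by 1.42 on the log2 scale (standard error 0.26, adjusted p = 0.0168, edgeR). Itga4 itself stood at 922, 996 and 1192 CPM in B2 and 1879, 1696 and 1930.0 CPM in MemB, above B2 in every library but short of the fold limit, as given above. Ahnak2, a large scaffold protein related to Ahnak, had 14.5, 25.4 and 12.5 CPM in B2 and 168, 108 and 51.2 CPM in MemB, where replicate 1 was highest and replicate 3 lowest. Ahnak2 rose by 2.64 on the log2 scale (standard error 0.49, adjusted p = 0.0224, edgeR). Sspn, sarcospan, a membrane protein of the dystrophin-associated complex, had 29.9, 17.2 and 19.7 CPM in B2 and 99.1, 117 and 85.3 CPM in MemB. Sspn rose by 2.17 on the log2 scale (standard error 0.42, adjusted p = 0.0269, edgeR).

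The remaining rises were of genes with varied roles. P2ry13, on chromosome 3 from 59114539 to 59118304, encodes a G protein-coupled receptor for ADP. It was almost absent from B2, with 7, 3 and 10 counts or 0.236, 0.100 and 0.304 CPM, and had 23.1, 27.0 and 10.3 CPM in MemB. Its log2 fold change of 6.53 was the largest among the called genes but carries a standard error of 1.24 (adjusted p = 0.0245, edgeR). Osbpl3, an oxysterol-binding protein family member that transfers lipids between membranes, had 2.26, 0.534 and 0.881 CPM in B2 and 33.3, 33.7 and 48.5 CPM in MemB. Osbpl3 rose by 4.97 on the log2 scale (standard error 0.86, adjusted p = 0.0127, edgeR). Pik3r5, a regulatory subunit of the phosphoinositide kinase that acts downstream of G protein-coupled receptors, had 68.2, 87.6 and 108 CPM in B2 and 327, 239 and 218 CPM in MemB. Pik3r5 rose by 1.57 on the log2 scale (standard error 0.29, adjusted p = 0.0175, edgeR), and no library of either cell type reached the other.

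Ass1, argininosuccinate synthase of arginine synthesis, had 17.6, 12.7 and 25.2 CPM in B2 and 77.7, 83.2 and 133 CPM in MemB. Ass1 rose by 2.40 on the log2 scale (standard error 0.46, adjusted p = 0.0245, edgeR). Fgl2, a fibrinogen-like protein with immune regulatory roles, had 10.98, 9.28 and 7.56 CPM in B2 and 24.7, 128 and 65.2 CPM in MemB. MemB replicate 1 was much the lowest of its group but still above all of B2, and the rise of 2.97 on the log2 scale had the largest adjusted p of the rises (standard error 0.61, adjusted p = 0.0426, edgeR). Fgl2 is also known from regulatory T cells and macrophages, and the summed T and NK markers and the summed macrophage markers given above were, like Fgl2, lowest in MemB replicate 1 among the MemB libraries. The part of such cells in the rise of Fgl2 was not tested.

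Fcer2a, Icosl and Cd69, which encode surface molecules, were lower in MemB. Fcer2a, on chromosome 8 from 3731737 to 3744183, encodes CD23, the low-affinity IgE receptor. It had 302, 248 and 256 CPM in B2 and 66.6, 26.8 and 69.0 CPM in MemB, lowest in replicate 2. It fell by 2.31 on the log2 scale (standard error 0.34, adjusted p = 0.00234, edgeR), or 4.97-fold lower. Icosl, the ligand by which B cells engage ICOS on T cells, had 140.5, 105 and 107 CPM in B2 and 28.4, 19.9 and 19.6 CPM in MemB. Icosl fell by 2.38 on the log2 scale (standard error 0.40, adjusted p = 0.00922, edgeR). Cd69, an activation antigen that retains lymphocytes in tissue by opposing S1PR1, had 203, 234 and 224 CPM in B2 and 55.0, 82.9 and 90.3 CPM in MemB. Cd69 fell by 1.53 on the log2 scale (standard error 0.29, adjusted p = 0.0260, edgeR). The T and NK marker sum was higher in MemB in these same libraries, and the part of such cells in the level of Cd69 was not tested.

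The other falls described here were of genes with varied roles. Lrrk2, on chromosome 15 from 91557083 to 91700604, encodes a leucine-rich repeat kinase and had 259.9, 333 and 443 CPM in B2 and 23.7, 58.8 and 110.4 CPM in MemB. Both groups spread widely, yet the highest MemB library was below the lowest B2 library. Lrrk2 fell by 2.43 on the log2 scale (standard error 0.40, adjusted p = 0.00775, edgeR). Slfn8, of the Schlafen family, had 127, 110.2 and 126 CPM in B2 and 17.8, 25.1 and 25.1 CPM in MemB. Slfn8 fell by 2.42 on the log2 scale (standard error 0.39, adjusted p = 0.00694, edgeR). Slc25a37, mitoferrin, which carries iron into mitochondria, had 146, 337 and 237 CPM in B2 and 57.6, 70.4 and 46.6 CPM in MemB. Slc25a37 fell by 2.04 on the log2 scale (standard error 0.33, adjusted p = 0.00756, edgeR). It is best known from red cell precursors, and erythroid and platelet markers summed to 0.0338, 2.7 and 0.0607 CPM in B2 and to 0.876, 0.0584 and 0.0593 CPM in MemB. Both were highest in B2 replicate 2 among the B2 libraries, and the part of red cell RNA was not tested. Neurl3, an E3 ubiquitin ligase of the Neuralized family, had 119, 88.9 and 145 CPM in B2 and 30.9, 32.2 and 33.4 CPM in MemB, where the libraries were nearly the same. Neurl3 fell by 1.87 on the log2 scale (standard error 0.38, adjusted p = 0.0377, edgeR). Gpr171, a G protein-coupled receptor, had 188, 158 and 209.5 CPM in B2 and 60.8, 55.5 and 62.9 CPM in MemB. Gpr171 fell by 1.63 on the log2 scale (standard error 0.30, adjusted p = 0.0224, edgeR).

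The sign of all 28 genes was the same in each fit that left out 1 of the 6 libraries, and 9 of them were called in all of these fits. The 9 were Ighg2c, Ighg2b, Ighg3, Igha, Ighd, Anxa2, Zbtb20, Bhlhe41 and Fcer2a, at adjusted p values of at most 0.0441 (edgeR). The other 19 lost the call at least once, and P2ry13, Neurl3, Gpr171, Zfp318, Ass1, Pik3r5, Cd69 and Sspn lost it without any 1 of the 6. The highest adjusted p in these fits was 0.458, for Fgl2 (same edgeR test). Some log2 fold changes also moved in size. Over these fits Ighg3 ran from 4.27 to 5.48, Osbpl3 from 4.62 to 5.76, Fgl2 from 2.28 to 3.39 and Lrrk2 from -3.06 to -2.02. In edgeR's model of all 12 libraries, Ighv12-3 (adjusted p = 0.0749), Ahnak2 (adjusted p = 0.434) and Sspn (adjusted p = 0.0649) were not called. In the non-robust edgeR fit, Ighv12-3, Neurl3 and Zfp318 (adjusted p = 0.0510 each), Cma1 (adjusted p = 0.0781) and Fgl2 (adjusted p = 0.0822) were not called.

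All 28 genes were matched to GENCODE M39 on GRCm39. They were 6 immunoglobulin genes and 22 other protein-coding genes on 14 chromosomes, with 7 on chromosome 12. Another annotated gene overlaps 14 of them, and whether reads were counted by strand is not given in the sources used here. For 23 of the 28, the 250 bases before the start of the canonical transcript were read from GRCm39 and searched on both strands for 4 motifs chosen after the calls were known. The constant genes, which are not transcribed from a promoter of that kind, were left out. The octamer ATGCAAAT, bound by the Oct family of factors, was in 3 of the 23 (13.04%), beside 2.16% of 12748 such windows of tested genes. GGGANNTTCC, a form of the NF-kB site, was in 2 (8.70%), beside 1.27%. The E-box CACGTG was in 1 (4.35%, Zfp318), beside 7.48%, and TTCNNNNGAA, a form of the STAT6 site, in 0, beside 5.41%. With so few windows these shares are a description, and a match of letters is not a binding site.

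The 4 windows printed here hold the octamer of 3 genes that rose and the NF-kB-type letters of Cd69, which fell. The second window with those letters, that of Neurl3, overlaps an annotated exon and is not shown. Each is written 5′ to 3′ on the strand of its gene and ends at the base before the transcript start, with the motif in capitals (on the opposite strand in Ass1, as ATTTGCAT, and in Cd69, as GGAAAATCCC). The windows are chr12:114330575-114330824 on the minus strand for Ighv12-3, chr5:21577390-21577639 on the plus strand for Fgl2, chr2:31359904-31360153 on the plus strand for Ass1 and chr6:129252400-129252649 on the minus strand for Cd69, all of GRCm39.
Ighv12-3: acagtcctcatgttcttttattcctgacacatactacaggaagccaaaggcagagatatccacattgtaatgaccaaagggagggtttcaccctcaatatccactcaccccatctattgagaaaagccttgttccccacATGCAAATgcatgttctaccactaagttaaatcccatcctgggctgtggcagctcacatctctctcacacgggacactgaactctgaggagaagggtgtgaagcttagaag
Fgl2: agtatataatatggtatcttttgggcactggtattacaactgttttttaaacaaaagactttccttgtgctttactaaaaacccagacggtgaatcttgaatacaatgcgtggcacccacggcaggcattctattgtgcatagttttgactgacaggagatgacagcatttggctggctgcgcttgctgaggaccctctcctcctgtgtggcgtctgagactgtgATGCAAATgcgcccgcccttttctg
Ass1: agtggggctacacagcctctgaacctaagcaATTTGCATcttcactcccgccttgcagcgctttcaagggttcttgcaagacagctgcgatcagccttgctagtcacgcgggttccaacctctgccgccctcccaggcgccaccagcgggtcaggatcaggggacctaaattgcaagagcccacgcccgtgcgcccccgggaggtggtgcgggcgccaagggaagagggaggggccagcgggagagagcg
Cd69: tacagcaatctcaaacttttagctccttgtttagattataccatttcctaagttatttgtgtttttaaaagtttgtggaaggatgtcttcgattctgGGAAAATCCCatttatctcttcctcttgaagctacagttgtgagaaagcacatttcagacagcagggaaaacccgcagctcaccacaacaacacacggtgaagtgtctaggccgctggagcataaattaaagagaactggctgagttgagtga
The first base of the octamer lies 111 bases before the start in Ighv12-3, 25 in Fgl2 and 219 in Ass1, and the NF-kB-type letters of Cd69 begin 153 bases before its start. An octamer close to the start is a known feature of immunoglobulin variable segments, of which Ighv12-3 is the only called member.

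Lists of genes for B cell states and pathways were described by counts and medians beside those of all genes tested, of which 6734 of 12920 had a positive sign. For the counts by other rules below, the shares of all genes tested are the 7.59% at an unadjusted p below 0.05 and the 2.04% called by DESeq2. In the naive follicular list all 15 members were tested and 3 fell, Fcer2a and Zfp318 among them, with 0 higher and a median log2 fold change of -0.54 (-0.71 in KI mice). DESeq2 called 6 of them. A further 4 had an unadjusted p below 0.05 on the lower side and were not called. They include Cr2, the complement receptor CD21 after which the Cre line of the KI mice is named, with 99.0, 108 and 175 CPM in B2 and 44.3, 50.2 and 37.7 in MemB (log2 fold change -1.53, adjusted p = 0.128, edgeR). The others are Satb1 (-1.46), a chromatin organizer, Bach2 (-1.19), a repressor of plasma cell differentiation, and Foxp1 (-0.54), a factor of follicular B cells. Klf2, which keeps recirculating lymphocytes moving, had 143, 183 and 117 CPM in B2 and 197, 237 and 228 in MemB, without overlap, and a log2 fold change of 0.58 that was not called (adjusted p = 0.617, edgeR). It was the 1 member of the list on the higher side at an unadjusted p below 0.05.

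Of the 26 genes known from memory B cells, all were tested, 1 rose (Zbtb20) and 0 fell, 22 had a positive sign, and the median was 0.84 (0.52 over the 25 tested in KI mice). At an unadjusted p below 0.05 there were 11, all higher in MemB, beside 7.59% of all genes tested, and DESeq2 called 7, beside 2.04%. Cd80, a costimulatory ligand that marks experienced memory B cells, had 17.7, 26.1 and 4.34 CPM in B2 and 111, 107 and 78.7 CPM in MemB, without overlap, and just missed the call (log2 fold change 2.62, adjusted p = 0.0514, edgeR). Fas, the death receptor also known from germinal center B cells, had 3.01, 0.534 and 0.789 CPM in B2 and 8.90, 31.9 and 23.6 in MemB (log2 fold change 3.89, adjusted p = 0.224, edgeR). Cxcr3, a chemokine receptor of T-bet-expressing cells, had 4.69, 10.4 and 8.44 CPM in B2 and 26.4, 34.4 and 70.1 in MemB (log2 fold change 2.47, adjusted p = 0.193, edgeR). T cells also express Cxcr3, and the T and NK marker sums stand above. Gpr34, the receptor the study is about, had 4.49, 3.41 and 6.80 CPM in control B2 and 18.6, 19.4 and 30.5 CPM in control MemB. The MemB libraries lay above the B2 libraries, and the log2 fold change of 2.22 was not called (adjusted p = 0.482, edgeR). At nearly the same log2 fold change Gpr34 was called by DESeq2 (2.21, adjusted p = 0.0411) and by edgeR's model of all 12 libraries (2.23, adjusted p = 0.00312). The KI libraries in that model carry the KI allele of GPR34. They had a mean of 107.7 CPM of Gpr34 in B2 and 154.5 CPM in MemB, and their part in that adjusted p was not tested.

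Genes known from B1 cells were described in the same way. All 14 were tested, 2 rose (Bhlhe41 and Ighv12-3, whose call was lost in the fits named above), 0 fell, 13 had a positive sign and the median was 1.40, the highest among the lists of B cell states apart from the switched constant genes. In KI mice the median of the same 14 was -0.21, and the difference between the genotypes was not tested for the list. The T and NK markers, which share Cd5 with this list, had the medians given above (1.64, and -1.73 in KI mice), and the part of such cells in the B1 medians was not tested. DESeq2 called 5 of the 14 in control mice, beside 2.04% of all genes tested. Spn, CD43, had 28.9, 64.7 and 14.8 CPM in B2 and 132, 138 and 123 in MemB, without overlap (log2 fold change 1.86, adjusted p = 0.136, edgeR). Zbtb32, a zinc finger factor that is on the memory list too, had 71.3, 35.2 and 31.6 CPM in B2 and 106, 168 and 147 in MemB (log2 fold change 1.61, adjusted p = 0.128, edgeR). Cd5, which B1a cells share with T cells, had 69, 360 and 16 counts in B2 and 307, 341 and 472 in MemB. Of the 9 tested genes of T-bet-expressing B cells, 0 were called by edgeR and 2 by DESeq2, 9 had a positive sign, 3 had an unadjusted p below 0.05 and the median was 1.18. Itgax reached 15.7 CPM in MemB replicate 3, against 0.198 and 1.37 CPM in the other MemB libraries, and its log2 fold change, which was not called, was 4.48 with that library and 1.62 without it. Itgax (CD11c) is also a dendritic cell gene, and MemB replicate 3 had the highest summed macrophage and dendritic cell markers (207 CPM) and 89.0 CPM of Ccl22, whose part in the level of Itgax was not tested.

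In the annexin, S100 and cytoskeleton list all 20 members were tested, 1 rose (Anxa2), 0 fell and the median was 0.38, with 7 at an unadjusted p below 0.05, all higher. S100a11 had 237, 256 and 256 CPM in B2 and 487, 470.1 and 471 in MemB (log2 fold change 0.93, adjusted p = 0.0697, edgeR), and Crip1 had 692, 708 and 604 and 1257, 1267 and 929 CPM (log2 fold change 0.78, adjusted p = 0.101, edgeR). Both were higher in every MemB library, by less than the fold limit. Among 23 tested chemoattractant receptors and integrins, 1 rose (Itgb1) and 1 fell, and 7 were higher and 4 lower at an unadjusted p below 0.05, beside 7.59% of all genes tested. The members went both ways, and their median was -0.01. Of 18 tested immediate early genes, 1 fell (Cd69) and 0 rose, with a median of 0.17. Fos had 13.2, 9.95 and 7.80 CPM in B2 and 57.4, 18.2 and 33.4 in MemB, without overlap, and was not called (log2 fold change 1.81, adjusted p = 0.472, edgeR), so the members did not all point one way.

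No gene was called by edgeR in the remaining lists. Of 12 germinal center genes, 6 were tested, 1 on each side had an unadjusted p below 0.05, and Bcl6, the germinal center repressor, had 41.2, 51.1 and 51.7 CPM in B2 and 2.46, 8.62 and 24.5 in MemB (log2 fold change -2.02, adjusted p = 0.418, edgeR). Of 14 tested plasma cell and secretion genes, 1 had an unadjusted p below 0.05, and the median was 0.57. The B cell receptor signalling list (26 tested, median -0.02) and the BAFF and CD40 receptor family (13 tested, median 0.10) had 4 and 3 genes at an unadjusted p below 0.05. For MHC class II presentation (12 tested, median -0.22), the BCL2 family (12 tested, median 0.26), Toll-like receptors (11 tested, median -0.16) and interferon-stimulated genes (15 tested, median 0.18), the number was 1 each. The S-phase list (43 tested, median -0.07) had 1 such gene and the G2/M list (47 tested, median 0.08) had 2, with medians on either side of the 0.04 of all genes. DESeq2 called 1 germinal center gene, 2 of the B cell receptor list and 2 of the BAFF and CD40 family, and 0 in the other lists of this paragraph.

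**Figure D4:**
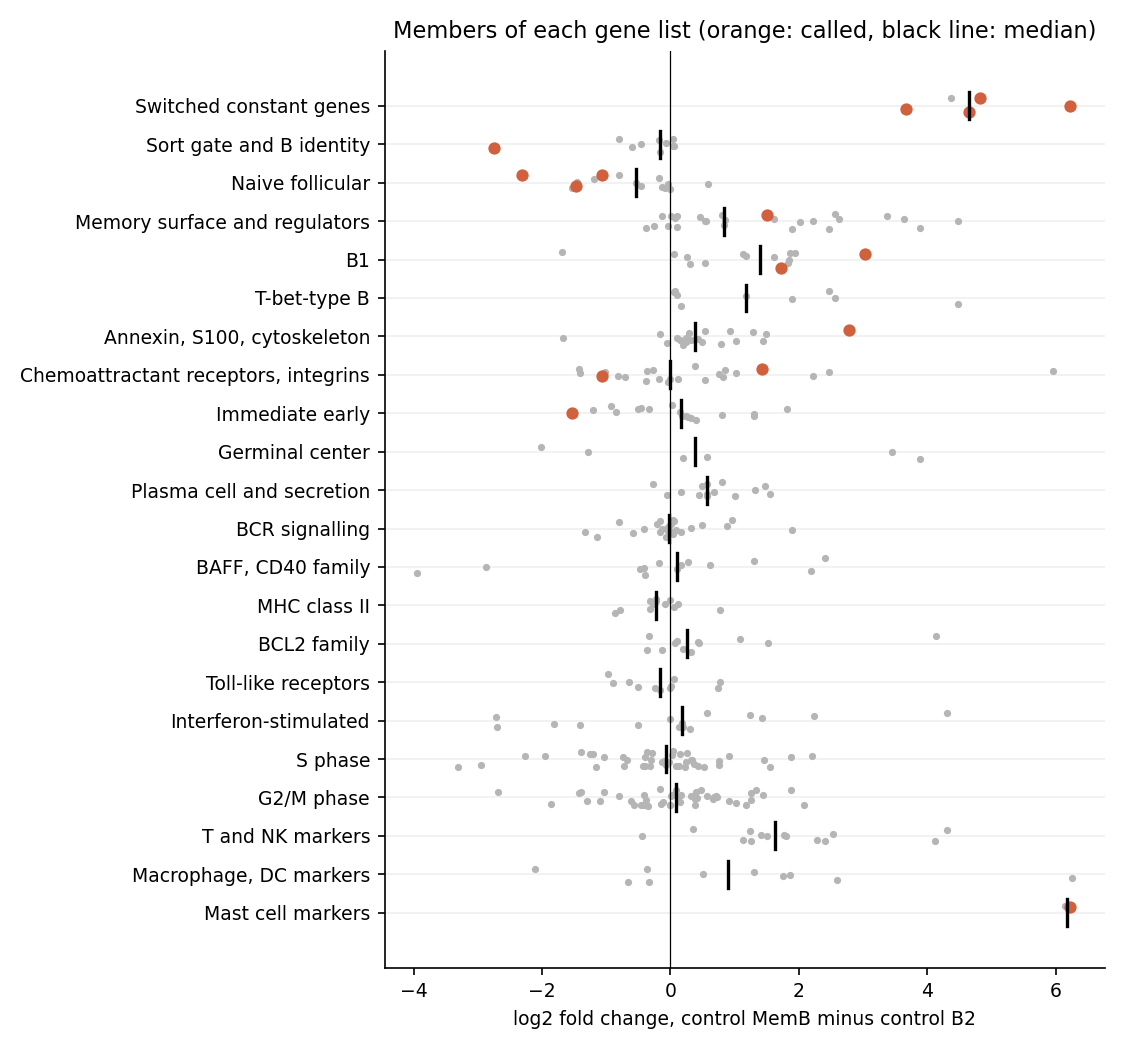
The log2 fold change of MemB over B2 for every tested member of 22 gene lists, with called genes in orange, genes not called in grey and the list median as a black line. The median of the switched constant genes lies far above 0, that of the naive follicular list below it, those of the memory, B1 and T-bet lists above it and those of the cell cycle lists near it, with members on both sides of 0 in the naive follicular, memory and B1 lists, and the T and NK list has a positive median with 0 genes called.

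The same comparison was made in KI mice, which share no library with the control mice. There, 55 of 13068 genes (0.421%) differed between MemB and B2 by edgeR's test, 38 higher and 17 lower. That number rested on single libraries too, with 24, 15 and 27 genes without KI B2 replicate 1, 2 or 3 and 26, 30 and 47 without KI MemB replicate 1, 2 or 3, so the shares below depend on it. Of the 28 genes called in control mice, all were tested in KI mice and 27 had the same sign, with Cma1 as the exception (log2 fold change -3.23). In 21 of them the KI libraries of MemB and B2 did not overlap, beside 15.3% of all genes tested in KI mice, and 13 were called in the same direction, which is 46.4% of the genes called in control mice and 23.6% of those called in KI mice. Among these 13 were Ighg2c, Ighg2b, Ighg3, Igha, Anxa2, Sspn, Bhlhe41 and Pik3r5 on the higher side and Zfp318, Fcer2a, Lrrk2 and Ighd on the lower. For 22 of the 28 the log2 fold change was smaller in size in KI mice, a direction favoured by choosing the genes on their control values, and no test was made of it. Itgb1 and Ighv12-3, for example, had 0.16 and 0.16 in KI mice against 1.42 and 3.02 in control mice, and Zbtb20 had 0.84 against 1.50. An interaction term over all 12 libraries called 10 of 14933 genes (0.067%), at which the MemB over B2 difference itself differed between the genotypes. DESeq2 called 204 by the same limits, and the edgeR test called 5 without control B2 replicate 2 and 6 without control B2 replicate 3. Of the 10 genes called by edgeR over all 12 libraries, those named here were Ighm, Ighv11-2, Jchain, Ighd and Cma1.

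**Figure D5:**
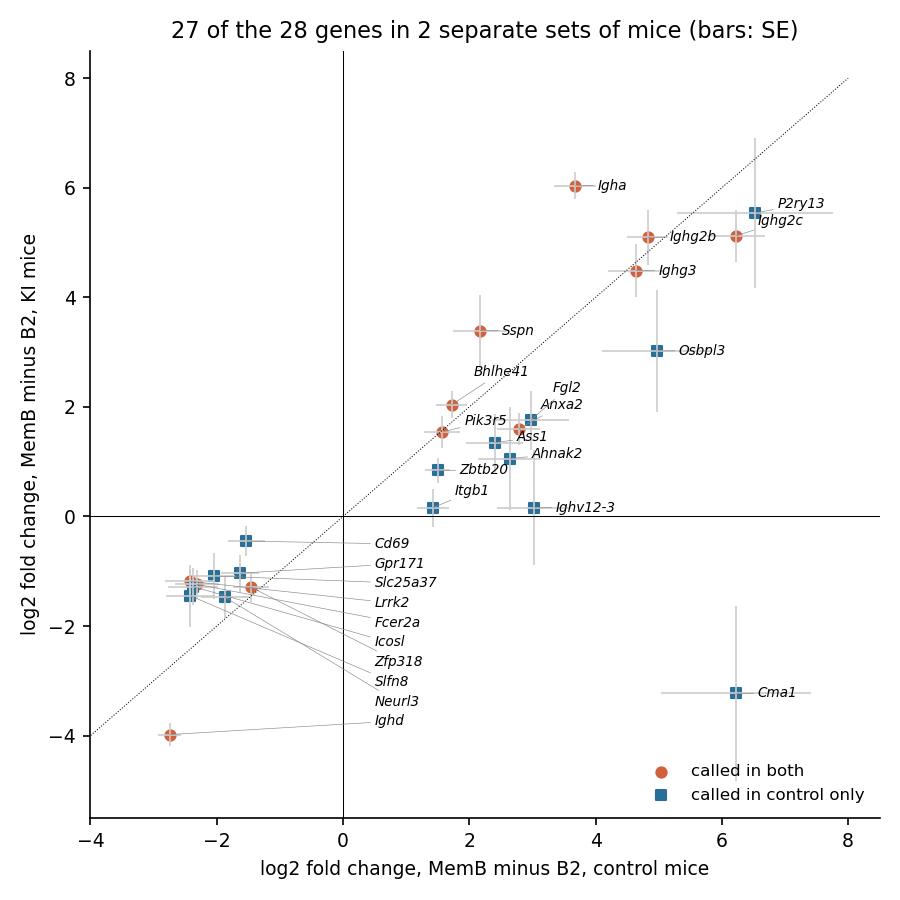
The log2 fold change of MemB over B2 in KI mice against that in control mice for 27 of the 28 genes called in control mice, with standard errors as bars and the diagonal dotted. Genes called in both (12, orange circles) and in control mice only (15, blue squares) lie on the same side of 0 on both axes, except Cma1 at 6.22 and -3.23.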

How the data were processed

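RNA of 6 control libraries was analysed. Per the study's methods and the submitters' processing notes, RNA was amplified with the Ovation kit, reads were paired-end, checked with FastQC 0.12.1, trimmed with cutadapt 4.5, aligned to mm39 with STAR 2.7.11a and quantified with RSEM 1.3.3, and the authors tested them with DESeq2. The annotation used for counting is not given in the sources used here. The authors deposited RSEM expected counts per gene, not normalized, in 1 table of all 12 libraries, whose column names identified the libraries (0 unmatched). Hyphens in symbols are dots in that table. The 813 entries without a symbol held 0.605% to 0.689% of the counts of a control library and were left out of library sizes and tests.

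Expected counts were rounded to whole numbers and tested with edgeR 4.0.16 in R 4.3.3 (TMM, filterByExpr with min.count 10, a robust quasi-likelihood fit, 2 group means, Benjamini-Hochberg adjustment over all genes tested). Calls required an adjusted p below 0.05 together with a log2 fold change beyond 1 in either direction, as in the study. The standard error is the size of the log2 fold change divided by the square root of the F statistic. KI libraries were fitted separately, and the interaction used all 12. Alternatives were other scalings and filters, DESeq2 1.42.0, a non-robust fit, a replicate block and each library left out. Coordinates and exon lengths were taken from GENCODE M39 (GRCm39, which is mm39). The scripts were tested on simulated data. The libraries had no molecular identifiers, so depth speaks only for counting error on amplified reads, and p-values measure the spread between these 3 and 3 libraries.

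Some genes, 1 called gene among them, are not reported here. The comparison and the gene lists were chosen with earlier results of these data known. The rule for named genes covered the gate genes, up to 15 rises and 15 falls with separated groups and at least 5 CPM, every called list member, up to 4 further members with at least 5 CPM of each list, and Gpr34. Outside it, Itga4, Cd3e, Cd8b1, Ighv11-2, Ighe, Bach2, Foxp1, Klf2, Zbtb32, Cd5, S100a11, Crip1, Timd4, Apoe, Cd68, P2ry12 and Med12l were named after their values were seen.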

Additional observations from a re-analysis of the deposited data

Results flagged for a closer look

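The difference between MemB and B2 was itself larger or smaller in control than in KI mice for 5 of the named genes, by edgeR's interaction test over all 12 libraries with Benjamini-Hochberg adjustment. The values are the control log2 fold change minus the KI one. For Ighm it was 2.05 (adjusted p = 9.77e-06, edgeR), with log2 fold changes of -0.80 in control and -2.85 in KI mice, and the call held without any 1 of the 12 libraries. For the variable segment Ighv11-2 it was 5.49 (adjusted p = 0.0147, edgeR), from 1.84 and -3.65, called in neither genotype alone, and 3 of those 12 fits did not call it. For Ighd it was 1.23 (adjusted p = 0.0442, edgeR), from -2.75 and -3.98, and 9 of the 12 fits without 1 library did not call it. For Jchain, the joining chain of polymeric IgA and IgM, it was -4.42 (adjusted p = 0.0442, edgeR), from 1.01 in control mice, where it was not called, and 5.43 in KI mice. Its call was lost in 8 of the 12 such fits. For the mast cell gene Cma1 it was 9.45 (adjusted p = 0.0442, edgeR), from 6.22 and -3.23, and was lost in 9 of the 12. Control MemB replicates 1 and 3 had 36.4 and 117 CPM of Cma1 and replicate 2 had 0.789 CPM.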

How the results depend on the processing

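Against 28 genes called between control MemB and control B2 (17 higher, 11 lower), DESeq2's Wald test called 263 (153 higher, 110 lower) and edgeR without a filter on low counts called 107 (71 higher, 36 lower). The cause of the difference between the tools was not tested. Without immunoglobulin genes 11 were higher in MemB, since 5 of the 17 and Ighd were then left out, and Fgl2 lost its call. When single libraries were left out, the number ranged from 10 to 19, with 7 to 13 higher and 3 to 6 lower, all in fits with 1 library fewer. DESeq2's size factors, ribosomal RNA genes left out, a minimum count of 50, a non-robust fit, a model of 12 libraries, no fold limit and entries without a symbol kept gave between 24 and 40 genes. Of the 28, the non-robust fit lost Fgl2, Neurl3, Zfp318, Ighv12-3 and Cma1, the model of 12 libraries lost Ighv12-3, Ahnak2 and Sspn, and the minimum count of 50 left out Cma1. Of the 86 named genes that were not called, DESeq2 called 19, edgeR without a filter 11, the model of 12 libraries 8, the replicate block 3 and the non-robust fit 1. No setting changed the sign of any of the 28 genes where they were tested. List medians also depended on single libraries. With 1 library left out, 46 of them moved past a preset limit and 98 did not, and under the other settings 15 did and 270 did not. In KI mice the 55 genes became 15 to 47 with a library left out and 66 with a replicate block, and the interaction's 10 became 204 with DESeq2 and 5 to 10 with a library left out, alternatives added after the data were seen. Among the 86 genes, the log2 fold change turned sign for 10, with a range over the fits that left out a library of -0.0061 to 0.11 for Ms4a1, -0.10 to 0.28 for Cd79a, -0.36 to 2.03 for Creld2, -0.86 to 3.35 for Prdm1, -0.14 to 0.88 for Bid, 0.29 to 1.36 for Tlr2, -3.25 to 0.87 for Cdca2, -0.075 to 2.81 for Dlgap5, -0.23 to 1.71 for Cd3e and -0.59 to 5.99 for Cd8b1 (both lowest without MemB replicate 2). With the replicate number as a block, Prdm1 stood at -0.076 and Tlr2 at -0.12.

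The labels number B2 and MemB libraries alike but do not say that a number marks a mouse. The deviations of same-numbered control libraries from their group means correlated at 0.0316, 0.0006 and 0.0090, and not every library correlated best with its own number, so the block was kept as an alternative. With the replicate number as a block 32 genes were called (20 higher, 12 lower), 26 of the 28 among them, without Fgl2 (adjusted p = 0.0915, edgeR) and Cma1 (adjusted p = 0.0917, edgeR). Among the named genes, the block added calls of Ighg1 (adjusted p = 1.41e-05, edgeR), Cd80 (adjusted p = 0.00687, edgeR) and Spn (adjusted p = 0.0227, edgeR). Depth limits the genes near the floor, such as P2ry13 in B2 with 3 to 10 counts.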

Other observations

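Some called genes are neighbours in the genome, a search made after the calls were known. Among the 22 called genes outside the immunoglobulin loci, 2 pairs lie within 200000 bases of each other. Gpr171 and P2ry13 lie 105296 bases apart on chromosome 3, both on the minus strand and both within the span of Med12l, which is on the other strand, and they moved in opposite directions, with log2 fold changes of -1.63 and 6.53. P2ry12, another ADP receptor gene in that span, had 0.101, 0.234 and 0.0607 CPM in B2 and 2.85, 2.37 and 2.61 CPM in MemB, above B2 in every library, and was not called (log2 fold change 4.27, adjusted p = 0.562, edgeR). Med12l itself had 8.75, 7.28 and 2.40 CPM in B2 and 2.94, 8.47 and 1.54 CPM in MemB, so its groups overlapped (log2 fold change -0.51, adjusted p = 0.977, edgeR). Bhlhe41 and Sspn lie 65936 bases apart on chromosome 6, on opposite strands, and both rose in control and in KI mice.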
